A study of Mus musculus with 2 samples.

Results

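The distal flank of Otx2 is a 950 kb stretch of mouse chromosome 14 (mm9, chr14:49550000-50500000) that begins 263 kb upstream of the annotated start of Otx2, a homeobox gene of forebrain and eye development, and holds 6 protein-coding genes around 1700011H14Rik. Its members were fixed by position alone: the probes whose midpoint lies in these coordinates, averaged in fixed windows of 1 kb that hold at least 3 probes. They came to 8435 of the 170542 probes of the array and to 767 of its 14948 windows. The data are 2 two-colour arrays of genomic DNA from RAG cells, a renal adenocarcinoma line from BALB/c mice. Each array is a biological replicate from its own flask of cross-linked, untreated cells, with DNA recovered by an antibody to Rad21 hybridised against input DNA after whole-genome amplification. These arrays form the only group, so a value is tested against 0 (equal signal in both dyes, relative to the array median) and not against another condition. One cell line is a limit on what these values stand for.

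Rad21 is the kleisin subunit of cohesin, the ring-shaped complex that holds sister chromatids together and extrudes loops of DNA in interphase. Cohesin accumulates where the zinc finger protein CTCF is bound, and the orientation of the CTCF motif decides from which side an extruding complex is halted. In many cell types the remaining cohesin is found at active promoters and enhancers.

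The stretch held 13 regions higher in Cy3, numbered R1 to R13 along the chromosome, and 8 of them carried a match to the CTCF core motif within 500 bp of the summit. Those 8 sites are shown because they are what most of the regions share and the region rule did not use. Each is read 5′ to 3′ on the strand of the match from the mm9 genome, with 24 bases on either side, and the capitals mark the core.
R3 (chr14:49647823-49647882, minus strand): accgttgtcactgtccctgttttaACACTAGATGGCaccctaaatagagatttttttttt
R4 (chr14:49711598-49711657, minus strand): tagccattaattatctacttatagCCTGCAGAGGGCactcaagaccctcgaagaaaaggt
R5 (chr14:49738200-49738259, minus strand): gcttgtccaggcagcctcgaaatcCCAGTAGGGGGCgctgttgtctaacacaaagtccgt
R6 (chr14:49773678-49773737, minus strand): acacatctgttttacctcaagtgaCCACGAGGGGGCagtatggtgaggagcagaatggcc
R7 (chr14:49854636-49854695, minus strand): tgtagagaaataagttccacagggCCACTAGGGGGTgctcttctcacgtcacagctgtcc
R8 (chr14:49857992-49858051, plus strand): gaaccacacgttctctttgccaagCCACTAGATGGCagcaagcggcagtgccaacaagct
R10 (chr14:50159957-50160016, minus strand): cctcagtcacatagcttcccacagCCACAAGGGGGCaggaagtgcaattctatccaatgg
R13 (chr14:50405675-50405734, minus strand): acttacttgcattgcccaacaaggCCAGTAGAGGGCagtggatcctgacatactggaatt
R5, R8 and R13 matched the core without a mismatch. The others had 1 mismatch, counted from position 1 at the 5′ end of the core: C1A in R3, A3T in R4, C12T in R7, and at position 5 a base other than the pair the core allows in R6 and R10. The match lay on the minus strand in 7 regions and on the plus strand in 1, R8. Over the whole stretch, matches with at most 1 mismatch were equally many on the strands, 38 on each. The distance from match to summit was 14 bp in R5 and 277 bp in R13, the ends of the range.

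The log2 ratio of Cy3 over Cy5, centred on each array's median, is used throughout. This direction opposes the labels, which put input in Cy3 and the ChIP DNA in Cy5 on both arrays, and it is the direction in which the authors' deposited ratios run. The labels and the deposited ratios thus conflict, and which dye carried the Rad21 DNA is not settled. No dyes were swapped, and results are therefore given by dye and in both directions. The median spot in the stretch was 30.1 (replicate 1) and 37.5 (replicate 2) times the local background in Cy3, and 14.5 and 16.4 times in Cy5. Of its probes, 89.9% to 98.5% were well above background, by channel and array. Saturated Cy5 spots numbered 69 and 45, and saturated Cy3 spots 1 and 3. The replicates correlated over the 767 windows with Pearson r = 0.61 and Spearman rho = 0.44, a description over windows that share both arrays. Without the 29 windows that touch a region, r was 0.38. Tiling was uneven, with 767 of 950 possible windows measured and a largest gap of 9710 bp between probe midpoints.

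**Figure D1:**
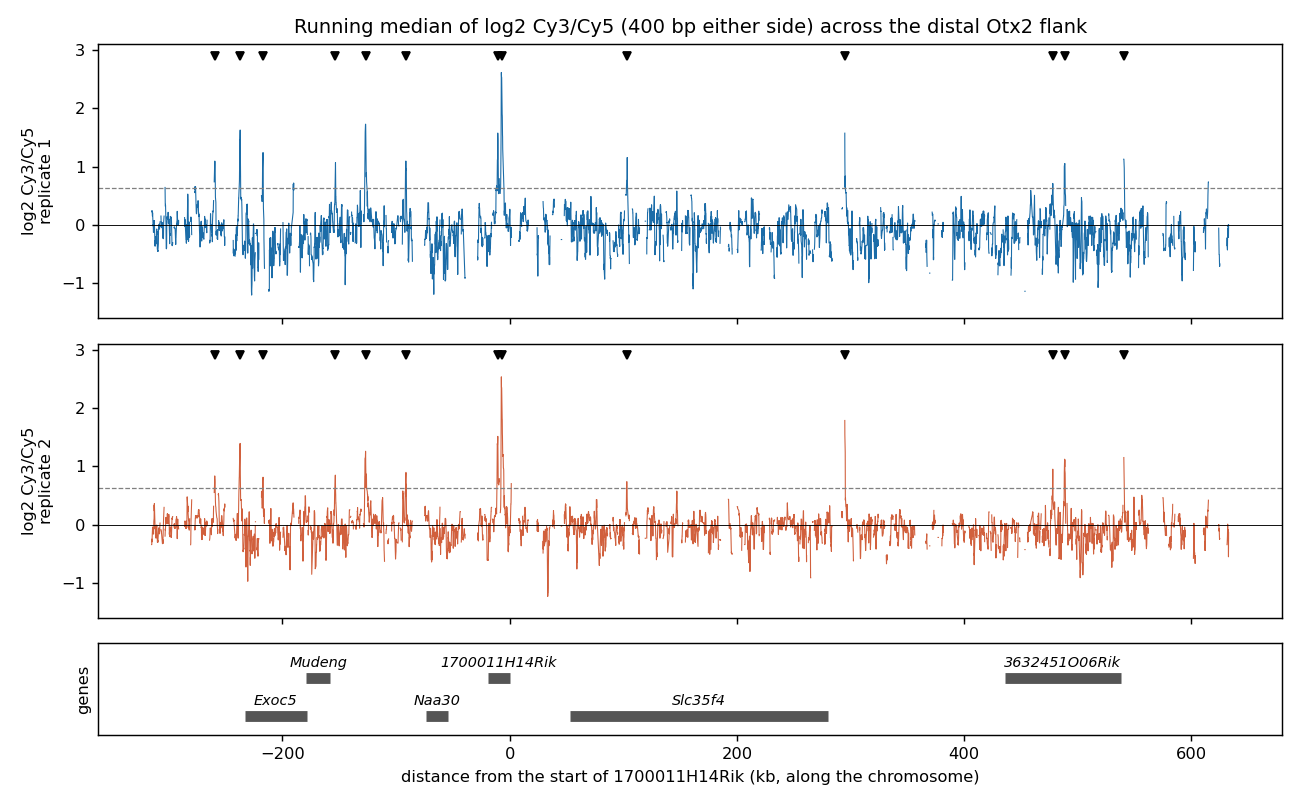
Running median of log2 Cy3/Cy5 within 400 bp on either side of each probe, for replicate 1 (top) and replicate 2 (middle), against distance in kb from the start of 1700011H14Rik, with protein-coding genes as bars at the bottom. Triangles mark the 13 regions higher in Cy3, the dashed line is the threshold of 0.64 for both arrays together, and R8 stands highest on both arrays.

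The 13 regions were called where the running median over both arrays passed 0.64 at 3 or more probe positions. They are 13 of 209 on the array and covered 13.9 kb, or 1.46% of the stretch. Windows touching such a region made up 3.78% of the windows in the stretch (29 of 767), beside 3.23% of all windows on the array. In the opposite direction the threshold derived from these data was -1.104 and no region of the stretch passed it, of 5 on the array. At the same size of threshold in both directions, 13 regions were called higher in Cy5 as well. Those were shorter, with a median of 300 bp against 850 bp and of 5 probe positions against 12, their strongest running median was -0.94 against 2.61, and 0 of 13 held a core match against 8 of 13. Their median GC content was 35.7% within 500 bp of the summit, against 41.3%. The 4 of them in Exoc5 and the 5 in 3632451O06Rik were most of their number.

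R8 had the highest running median of the stretch, 2.61 at its summit, while by the mean over the region it and R10 were level at 1.55. It spans chr14:49857533-49860045, 2513 bp in an intron of 1700011H14Rik (Ccdc198 in current nomenclature, a coiled-coil domain gene), with its summit 7.3 kb downstream of the annotated start. Its mean log2 Cy3/Cy5 was 1.59 on replicate 1 and 1.51 on replicate 2, or 1.55 ± 0.06 (SD, n = 2), a 2.93-fold ratio. Both arrays were thus within 0.1 of each other. The window chr14:49858001-49859000 within it had 1.87 and 1.70, the highest window mean of the stretch at 1.78 (limma adjusted p = 0.000218). Its neighbours were at 1.41 towards the gene's end (limma adjusted p = 0.000396) and 0.95 towards the start (limma adjusted p = 0.00166). Both channels were bright there. Cy3 was 2.73 and 2.62 log2 units above the median probe of the stretch, and Cy5 1.07 and 1.05. Within 500 bp of the core, the probe with the highest mean log2 ratio of both arrays had 3.09 and 2.85 and lay 80 bp from it, and on replicate 2 alone the highest probe of the region had 3.00. In R8, 2 probes were saturated in a channel, and with saturated probes left out the region was still called and its mean was 1.62.

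The 300 bases that span the summit and core of R8, with the core in capitals, are shown because they hold the highest running median of the stretch (mm9, plus strand).
R8 summit (chr14:49857765-49858064, plus strand): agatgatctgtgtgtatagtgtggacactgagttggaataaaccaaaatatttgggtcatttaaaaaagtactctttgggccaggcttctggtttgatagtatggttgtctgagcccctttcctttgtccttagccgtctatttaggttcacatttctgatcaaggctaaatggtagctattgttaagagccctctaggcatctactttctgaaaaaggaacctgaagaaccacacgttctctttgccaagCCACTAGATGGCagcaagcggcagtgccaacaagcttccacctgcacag
GC content of this piece was 44.0%, beside a median of 40.4% over the windows of the stretch.

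R7 lies in the same gene, at chr14:49853999-49856382, with its summit in an intron 10475 bp from the start and 3.17 kb from the summit of R8. Its mean was 0.96 and 0.92 on the arrays, or 0.94 ± 0.03 (SD, n = 2), and its summit window was at 1.18 (limma adjusted p = 0.000639). The cores of this pair point in opposite directions: minus in R7, which lies at the lower coordinate, and plus in R8. Since a plus-strand core at the higher coordinate and a minus-strand core at the lower one point away from each other, the arrangement is divergent. Over all 19 windows of 1700011H14Rik the median was 0.30 on replicate 1 and 0.23 on replicate 2, while the medians over the stretch were -0.13 and -0.09. Of these windows 6 were higher in Cy3 in the limma fit, 3 touching R7 and 3 touching R8. Each of these regions touched 4 windows, so the median of the gene includes windows chosen for a high ratio. Towards the 3′ end of the gene the values fell to -0.39.

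**Figure D2:**
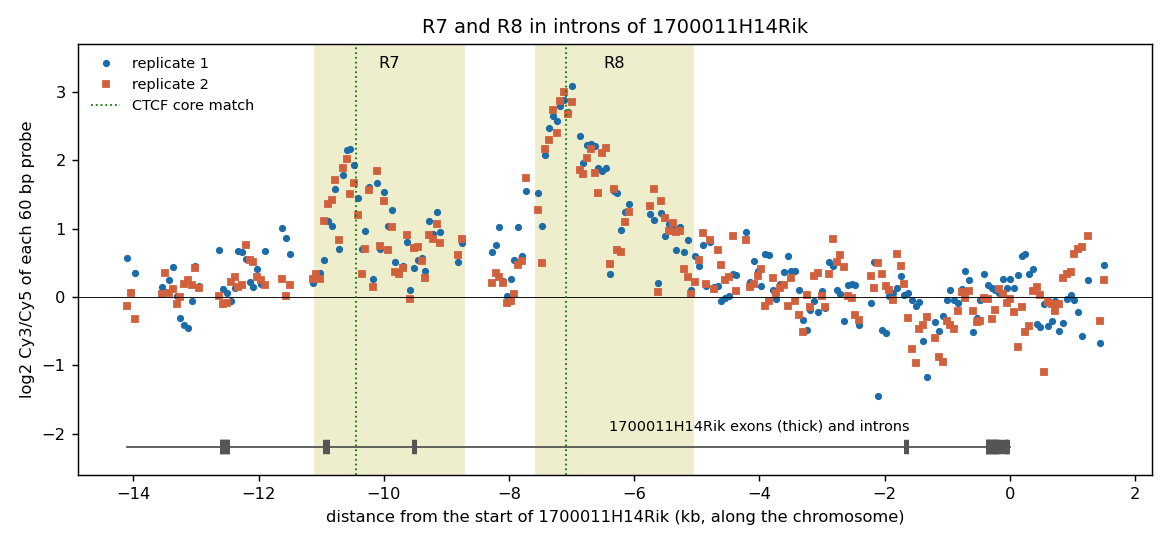
Log2 Cy3/Cy5 of each 60 bp probe on replicate 1 (circles) and replicate 2 (squares) against distance in kb from the start of 1700011H14Rik, with R7 and R8 shaded, exons as thick bars and CTCF core matches as dotted lines. Probes of both arrays form a peak over each core, the taller in R8, where single probes reach 3.09, and lie around 0 at the start of the gene.

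R10 and R5 followed R8 by running median, both between genes. R10 (chr14:50159768-50160616), 14.1 kb upstream of the start of Slc35f4, a solute carrier family member, had 1.41 and 1.70 on the arrays, or 1.55 ± 0.20 (SD, n = 2). With the GC trend removed its mean was 1.87, beside 1.63 for R8, and in the deposited values 1.13, beside 1.63. It rests on only 8 probe positions, its summit window on 3 probes (1.41, limma adjusted p = 0.000396), and it was not called on replicate 1 alone. R5 (chr14:49737434-49739191) lies between Mudeng and Naa30. Its nearest protein-coding start, 51.9 kb away on the far side of Mudeng, is that of Exoc5, a subunit of the exocyst that tethers secretory vesicles. R5 had 1.22 and 1.01, or 1.12 ± 0.15. Its summit window was at 1.19 (limma adjusted p = 0.00103), its core matched exactly, and it spanned 26 positions.

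R2 and R1 lie beyond the 3′ end of Exoc5 and carried no core match. R2 (chr14:49626901-49628044) had 1.18 and 1.12, or 1.15 ± 0.04 (SD, n = 2), with a summit window at 1.17 (limma adjusted p = 0.000639). R1 (chr14:49605058-49605885) had 1.05 and 0.93, or 0.99 ± 0.08, with a summit window at 0.89 (limma adjusted p = 0.00252). The lack of a match says only that these letters are not in the searched span. R3 (chr14:49647559-49648038), in an intron of Exoc5, had 1.31 and 1.099, or 1.21 ± 0.15. Its summit lies at the edge of a window whose mean of 0.26 did not pass (limma adjusted p = 0.149), while the other window that it touches did.

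R13 (chr14:50405399-50406248) lies 2.37 kb upstream of the start of 3632451O06Rik (Armh4, an armadillo-like helical domain gene), the shortest distance to a protein-coding start among the regions. It had 1.15 and 1.16 on the arrays, or 1.16 ± 0.01 (SD, n = 2), and a summit window at 1.18 (limma adjusted p = 0.000653). Cy3 was 0.56 and 0.40 log2 units above the median probe of the stretch and Cy5 at -0.65 and -0.83. The dyes thus lay on opposite sides of it, with Cy5 the further away. On both arrays they did so in R5 too, with Cy3 at 1.17 and 0.97 and Cy5 at -0.12 and -0.10. R12 (chr14:50353295-50354227), in an intron of the same gene and with no core match, had 0.87 and 0.96, or 0.92 ± 0.06, with a summit window at 0.98 (limma adjusted p = 0.00145). R6 (chr14:49773296-49774195), 18.2 kb upstream of Naa30, the catalytic subunit of an N-terminal acetyltransferase, had 0.98 and 0.84, or 0.91 ± 0.10, with a summit window at 0.83 (limma adjusted p = 0.0036).

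The remaining 3, R4, R9 and R11, had the lowest running medians, 0.72 to 0.93. R4, between genes, rests on 4 positions and its arrays differed most, at 1.58 and 0.98. Relative to the median probe of the stretch, its Cy3 was at 0.03 and -0.88 log2 units and its Cy5 at -1.62 and -1.92. Its ratio thus came with dim Cy5 and not with raised Cy3. R9 lies in an intron of Slc35f4 with 0.82 and 0.64. R11 lies in an intron of 3632451O06Rik with 0.53 and 0.54, and was called on replicate 2 alone but not on replicate 1 alone. Of the 13 regions, 11 were found on both arrays called separately.

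**Figure D3:**
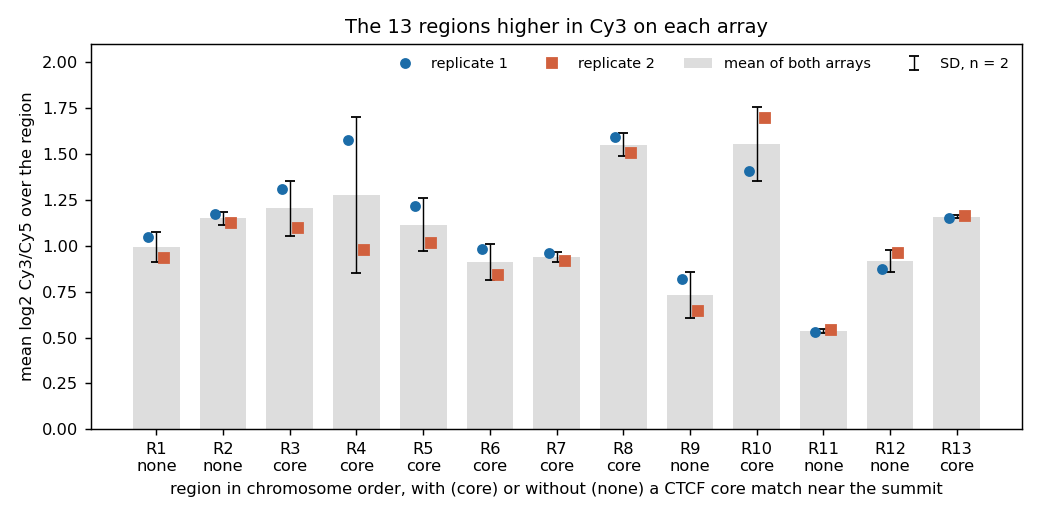
Mean log2 Cy3/Cy5 over each of the 13 regions in chromosome order: bars are the mean of both arrays, error bars the SD (n = 2), circles replicate 1 and squares replicate 2. The word under each name says whether a CTCF core match lay within 500 bp of the summit. R8 and R10 are the highest at 1.55 each and R11 the lowest at 0.54.

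A region called on one array has a value on the other array that the call did not use. Replicate 1 alone gave 11 regions in the stretch, and over them replicate 2 had a median of 1.18, from 0.41 to 1.65. Replicate 2 alone gave 13, over which replicate 1 had a median of 1.21, from 0.59 to 1.64. The value on the other array was above 0.64, the threshold for both arrays together, in 22 of these 24 measurements. The exceptions were the R9 call of replicate 1 (0.41) and the R11 call of replicate 2 (0.59). The thresholds of the arrays alone were 0.909 (replicate 1) and 0.675 (replicate 2). Against 0.909, the R9 and R12 calls of replicate 2 were also lower on replicate 1, at 0.72 and 0.83. Most regions enter these measurements from both arrays. Around the summits of replicate 1, replicate 2 fell from 1.19 ± 0.46 within 250 bp to 0.40 ± 0.27 at 500 to 1000 bp and 0.02 ± 0.34 at 2000 to 5000 bp (SD over 11 summits). In the other direction the same distances gave 1.40 ± 0.49, 0.40 ± 0.33 and -0.03 ± 0.39 (SD over 13 summits). On both arrays the mean was thus near 0 by 2000 to 5000 bp, where the spread over summits was as wide as at 500 to 1000 bp. The summits of R7 and R8 lie 3.17 kb apart, so each falls within that distance of the other. At 5000 to 10000 bp the values were -0.11 ± 0.12 on replicate 2 and -0.18 ± 0.14 on replicate 1.

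**Figure D4:**
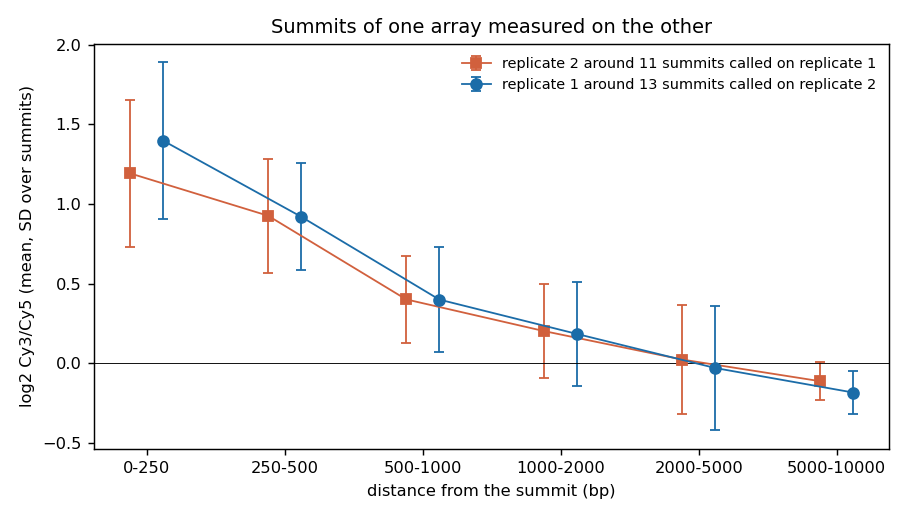
Log2 Cy3/Cy5 of one array at 6 distances from the summits called on the other array alone, as mean and SD over the summits (squares: replicate 2 around 11 summits of replicate 1; circles: replicate 1 around 13 summits of replicate 2). Both curves fall from 1.19 and 1.40 nearest the summit to 0.40 at 500 to 1000 bp and reach 0 by 2000 to 5000 bp.

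In the limma fit over all windows, 24 of the 767 windows were higher in Cy3 (3.13%, beside 3.61% of the array) and 52 were higher in Cy5 (6.78%, beside 5.10% of the array). The share in Cy3 was thus near the background. The windows called in each direction were unlike in size: the Cy3 windows had a median of 0.82 and reached 1.78, with 7 above 1, and the Cy5 windows a median of -0.52, reaching -0.87, with 0 beyond -1. Of the 24 Cy3 windows, 22 touched a region. The other two were a window next to R11 (0.46, limma adjusted p = 0.033) and one at chr14:49581001-49582000, between genes (0.41, limma adjusted p = 0.0467). The lowest window, chr14:50318001-50319000 in an intron of 3632451O06Rik, had -1.03 and -0.70 on the arrays (mean -0.87, limma adjusted p = 0.00547). It was followed by chr14:49845001-49846000, next to the 3′ end of 1700011H14Rik (-1.03 and -0.51), and chr14:50432001-50433000 (-1.08 and -0.42), in each of which replicate 1 was lower by over 0.5. The Cy5 calls depend on the variance model and the scaling, with 0 under a trended, robust prior and 4 after removal of the trend on GC content, where the Cy3 calls were 29 and 28. GC content moved with the ratio: r was 0.40 over the 738 windows outside regions, and the median GC content was 37.9% in Cy5 windows, 41.1% in Cy3 windows and 40.6% in the rest. Its part in the Cy5 calls was measured only by that removal.

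No start site in the stretch passed the test of a difference between the dyes in the limma fit over all 227 annotated gene starts of the array, 0 of 12 in either direction, where 11.5% of all starts were higher in Cy3 and 3.96% in Cy5. At an unadjusted p under 0.05 there were 0 in Cy3 and 1 in Cy5, the microRNA gene AC154701.1. A start was measured over the probes within 500 bp. The start of 1700011H14Rik had 0.18 and -0.15 on the arrays (0.01 ± 0.24, SD, n = 2; limma adjusted p = 0.949), 7.3 kb from the summit of R8. That of 3632451O06Rik had 0.22 and 0.06 (0.14 ± 0.11, limma adjusted p = 0.303), the highest mean of the 12. Exoc5 and Mudeng (Ap5m1, a subunit of an adaptor complex of late endosomes) start next to each other on opposite strands and share probes, with means of 0.04 and 0.02. Naa30 was at -0.03, and the annotated starts of Slc35f4 at 0.05 and 0.10. With 2 arrays these values do not show that the starts lack Rad21, only that no difference beyond the spread was detected there.

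The CTCF core can also be searched for without regard to the regions, although the values below are split by region. With at most 1 mismatch on either strand it was found within 500 bp of the centre of 7.73% of all windows on the array and 7.32% of the windows of the stretch outside regions, beside 8 of the 13 summits. Exact matches numbered 9 in the stretch and 8 of them had at least 3 probes within 500 bp. The 3 in R5, R8 and R13 had means of 1.35, 2.24 and 1.22, each above 1.2 on both arrays. The other 5, between genes or in introns of 3632451O06Rik, had means of -0.21 to 0.17 and none was above the threshold on either array. With 1 mismatch allowed, 63 matches were measured: the 8 at summits had a median of 1.26, and the 55 elsewhere a median of -0.08, of which 1 was above 0.64. The first of these medians is high through the choice of the summits and is given as a description. The same holds for the split of the exact matches, since the regions were called on these ratios.

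**Figure D5:**
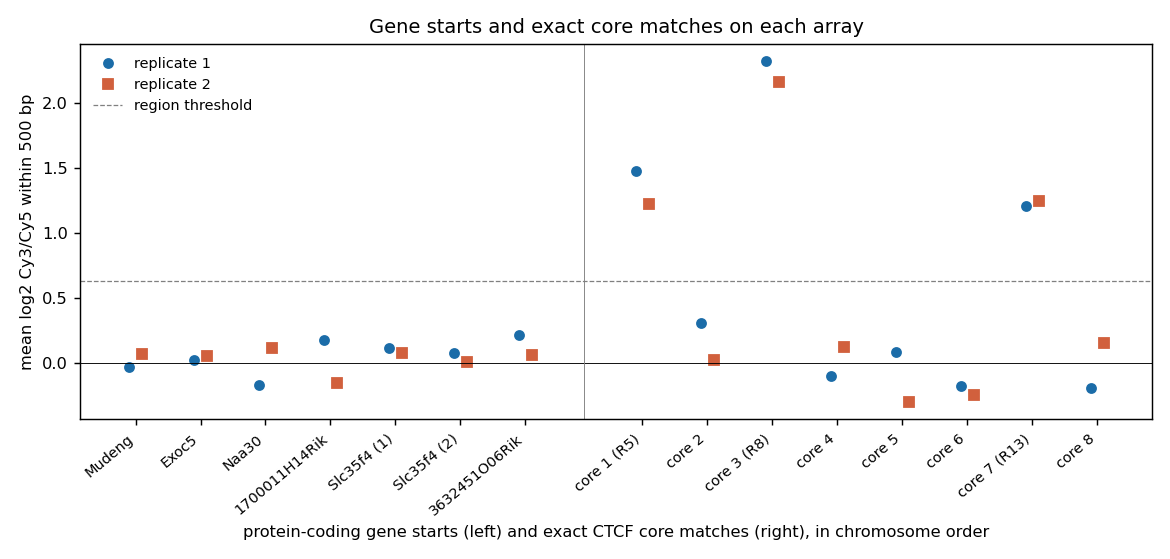
Mean log2 Cy3/Cy5 within 500 bp of the 7 annotated protein-coding starts (left) and of the 8 measured exact CTCF core matches (right), in chromosome order, for replicate 1 (circles) and replicate 2 (squares), with the region threshold of 0.64 as a dashed line. The starts lie between -0.17 and 0.22 on either array, and 3 of the core matches, those in R5, R8 and R13, lie above 1.2 on both. Those regions were called on the same ratios.

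The regions higher in Cy3 were unevenly spread. Up to the start of 1700011H14Rik, 8 regions lay in 315 kb, and beyond it 5 in 635 kb. Windows higher in Cy3 were 5.86% of the first (16 of 273) and 1.62% of the second (8 of 494), and those higher in Cy5 were 8.06% (22) and 6.07% (30). No test of these differences was made because neighbouring windows are not independent. Spacing between summits ranged from 3.17 kb to 192 kb, with a median of 43.7 kb. The widest intervals, R9 to R10 across most of Slc35f4 (151 windows) and R10 to R11 (147 windows), held 0 and 1 window higher in Cy3, the 1 being the window next to R11, and 5 and 11 higher in Cy5. By annotation, 6 summits lay in introns and 7 between genes, and windows in genes and between them were called in Cy3 at 3.04% and 3.23% and in Cy5 at 8.61% (34 of 395) and 4.84% (18 of 372). Windows higher in Cy5 numbered 5 of 19 in Naa30, 10 of 46 in Exoc5, 10 of 96 in 3632451O06Rik and 2 of 20 in Mudeng. In Slc35f4 they were 7 of 195 and in 1700011H14Rik 0 of 19, beside 5.10% of all windows on the array. Gene bodies differed in level, with medians of -0.36 in Naa30, -0.26 in Exoc5, -0.19 in Mudeng, -0.18 in 3632451O06Rik and -0.10 in Slc35f4. The median was 0.26 in 1700011H14Rik, where 4 of the 19 windows touched R7 and 4 touched R8. That gene also had the highest GC content of these, 43.5% against 35.5% to 41.1%.

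The rest of the same tiled segment (chr14:48500001-49550000, with Otx2) and the other tiled segment of chromosome 14 are the nearest comparisons. The windows higher in Cy3 were 3.04% (29 of 954) and 2.92% (25 of 855) there, against 3.13% in the distal flank. In Cy5 they were 1.68% and 1.17% against 6.78%. The median window was at -0.02 in both, against -0.13, and median GC content was 44.0% and 43.1% against 40.4%. Shares of windows were not tested between segments, and the part of GC content in their difference was not tested.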

How the data were processed

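Rad21 ChIP-chip was performed by the authors on 2 two-colour Agilent arrays (replicates 1 and 2, the only group). The intensities deposited are Feature Extraction 10.5.1.1 output: background-subtracted, scaled by a linear dye factor. The log10 ratio and the spot quality marks (other values, 0 or 1) are as the authors deposited them. The deposited log2 table, smoothed by the authors with Ringo, carries row numbers only. Tied to probes sorted by number as text, after skipping 3, it had r = 0.964 and 0.962 with a running median within 300 bp of Cy3/Cy5, and served as an alternative. Positions and annotation (GENCODE M1) are mm9.

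The log2 ratio of processed signals was centred on each array's median over non-control probes, without loess or quantile normalization. After centring, 27 outlier spots were dropped. limma 3.58.1 (R 4.3.3; lmFit, eBayes, two-sided, Benjamini-Hochberg over all windows or starts, threshold 0.05) tested the mean of both arrays against 0. Regions came from a running median within 400 bp (5 or more values), a threshold set by reflecting the values below the mode and taking their 0.99 quantile, 3 or more positions, joined under 600 bp. The Cy3 threshold comes from values on the Cy5 side and the reverse. Normexp (offset 50) and uncorrected alternatives used median spot signals, since mean signals are not among the columns used here. The limma fit was also run on simulated windows. Their noise was drawn from its own fitted prior and was independent between windows. That run thus cannot show how the fit behaves with a GC trend or dependent neighbours. Described one by one were the 10 regions of highest running median, every protein-coding start and the 3 most extreme windows in each direction. The stretch, lists and rules were chosen with earlier results of these data known. The number of arrays limits the precision. The p-values rest on the spread between these 2 flasks, with the variance of each window or start drawn towards a variance shared over the array. Computations used Python 3.11.15, numpy 2.4.6 and pandas 2.3.3.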

Additional observations from a re-analysis of the deposited data

How the results depend on the processing

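Both arrays belong to a single group, so no pairing between arrays was possible. Each ratio itself compares the 2 dyes on the same array. Windows higher in Cy3, 24 in the reported fit, became 50 under normexp and 48 in 500 bp windows (of 1289). Windows beyond 0.64 on a single array replaced the test without the other array, and ranged from 16 to 20. Windows higher in Cy5, 52 as reported, became 98 with no background correction, 93 centred on the mode, 112 in 500 bp windows, 87 in 2 kb windows (of 420), 23 under normexp, 7 in the deposited table, 9 after loess, 4 after removal of the GC trend, 16 when dim probes were dropped and 0 under the trended, robust prior. On single arrays they ranged from 10 to 45. The 13 regions higher in Cy3 became 23 under normexp, 20 with loess and 23 with the GC trend removed, and all 13 were found again each time. R11 was lost most often, and R4, R9 or R10 were lost under some settings. Single arrays gave 11 to 13. Regions higher in Cy5 rose from 0 to 6 at the 0.98 quantile and 13 at the common threshold, which lower the threshold by construction, and ranged from 1 to 2 on single arrays. Start sites higher in Cy5 rose from 0 to 3 within 1 kb of each start (U1, AC154701.1 and Gm16082, none protein-coding). Of these, U1 had -0.39 on replicate 1 and -0.006 on replicate 2. That fit gave the 12 starts the same standard error, 0.076. Core matches fell from 8 to 3 regions with 0 mismatches, where 0.528% of windows hold one. For all else the cause was not tested. None of the 100 recomputed means of the 10 named regions changed sign, and they lay between 0.73 and 1.20 times the reported value. The Pearson r between arrays was 0.57 to 0.66 under all alternatives run on it.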
